A study of Mus musculus with 11 samples.

Results

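Chemokines and their receptors were followed across the main subsets of classical dendritic cells (cDCs) of mouse spleen. Members were every gene whose symbol in the platform annotation is a Ccl, Cxcl, Xcl1 or Cx3cl1 chemokine or a Ccr, Cxcr, Xcr1, Cx3cr1, Ackr or Ccrl2 receptor, each read from its probe set with the highest mean among those that carry a single gene symbol. They came to 56 of 19938 genes, of which 34 were ligands and 22 receptors. A further 6 genes of these families lay only on probe sets shared by several symbols and entered no test. The probe sets of the 4 Ccl21 genes averaged log2 5.78 in CKO CD172a+, 5.75 in ctrl CD24+ and 5.79 in ctrl CD172a+ arrays, and the 3 probe sets of both Ccl27 genes had group means between 5.90 and 6.38.

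Gene expression was measured on 11 Affymetrix arrays of cDCs sorted from spleens of C57BL/6 mice. The CKO CD172a+ group held 4 arrays of CD172a+ cDCs from mice with the genotype Zeb2(fl/fl);CD11c-Cre(tg). The ctrl CD24+ group held 3 arrays and the ctrl CD172a+ group 4 arrays, both from Zeb2(fl/fl) mice without the transgene, so floxed Zeb2 was common to every group and the Cre transgene belonged to the CKO mice alone. Loss of Zeb2 and presence of Cre therefore cannot be told apart. The CD11c promoter drives Cre in cDCs and in other cells that express CD11c. Zeb2, a zinc-finger repressor of transcription, averaged log2 8.79 ± 0.44 in the arrays labelled CKO, 5.26 ± 0.23 in ctrl CD24+ and 8.33 ± 0.19 in ctrl CD172a+ arrays (SD, n = 4, 3 and 4), so the signal was not lower in the group labelled as lacking it. Whether the probe set lies in the deleted part was not given in the sources used here, and "CKO" is used below as a label. Ages were not given, nothing states that replicates came from separate animals, and p-values reflect the spread among these samples alone, which may be technical.

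The sort labels were checked against marker genes. Sirpa, which encodes CD172a, averaged 10.74 ± 0.27 in CKO CD172a+, 6.20 ± 0.21 in ctrl CD24+ and 10.92 ± 0.28 in ctrl CD172a+ arrays. Of 10 markers of cDC1, the subset to which CD24+ cells belong, 9 passed limma's test as higher in ctrl CD24+ than in ctrl CD172a+ cells, and of 10 markers of cDC2, the CD172a+ subset, 9 passed as lower. The arrays also fell into 2 sets that cross the groups, found from the second principal component of all genes (34.2% of the variance) and given no name by the labels. The first set held replicates 1 and 2 of both CD172a+ groups and replicate 1 of ctrl CD24+, and the second set the other 6 arrays. Ctrl CD24+ replicate 1 was therefore the only CD24+ array of the first set. A block for array set comes from the same values that are then tested, so p-values with that block may be too small. Over 9 red pulp macrophage markers the mean was 5.86 on the first and 7.12 on the second set in CKO CD172a+, 5.20 and 5.89 in ctrl CD24+, and 5.98 and 7.33 in ctrl CD172a+ arrays.

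Chemokines are small secreted proteins that bind receptors coupled to inhibitory G proteins and guide the migration of leukocytes along gradients. In the spleen, Ccr7 takes maturing dendritic cells into the T cell zone, while Xcr1 is restricted among mouse dendritic cells to the cDC1 subset and responds to Xcl1, released by NK cells and CD8 T cells. Atypical receptors such as Ackr1 and Ccrl2 bind chemoattractants without the usual signal.

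All values are deposited log2 values from RMA (robust multi-array average), a method that subtracts background, makes the arrays' distributions alike and summarises the probes of a gene. RMA shrinks differences near background, so where the lower group lay near or below the median of all genes (5.54 in CKO CD172a+, 5.49 in ctrl CD24+ and 5.52 in ctrl CD172a+) a difference is not an exact ratio. Probe sets differ in brightness, so no order of level is read between genes. In bulk samples, fewer cells of a type and less RNA per cell cannot be told apart. A gene was said to rise or fall when limma's test gave an adjusted p (Benjamini-Hochberg, over all genes) below 0.05.

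Ligands whose group mean exceeded the median of all genes numbered 17 of 34 in CKO CD172a+, 17 in ctrl CD24+ and 17 in ctrl CD172a+ cells, and 16 did so in all 3 groups. Receptors above it numbered 9 of 22 in CKO CD172a+, 9 in ctrl CD24+ and 10 in ctrl CD172a+ cells, and 6 did so in all 3 groups. Those 6 receptors were Ccr7, Cxcr4, Ccrl2, Cxcr6, Cx3cr1 and Cxcr3, whereas 11 receptors lay below the median in every group, among them Ccr1, Ccr3, Ccr4, Ccr8, Cxcr2 and Cxcr5. Cxcr2 is a marker of neutrophils, and all 8 neutrophil markers examined lay below the median in every group. The heat map of the members shows these levels array by array.

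**Figure D1:**
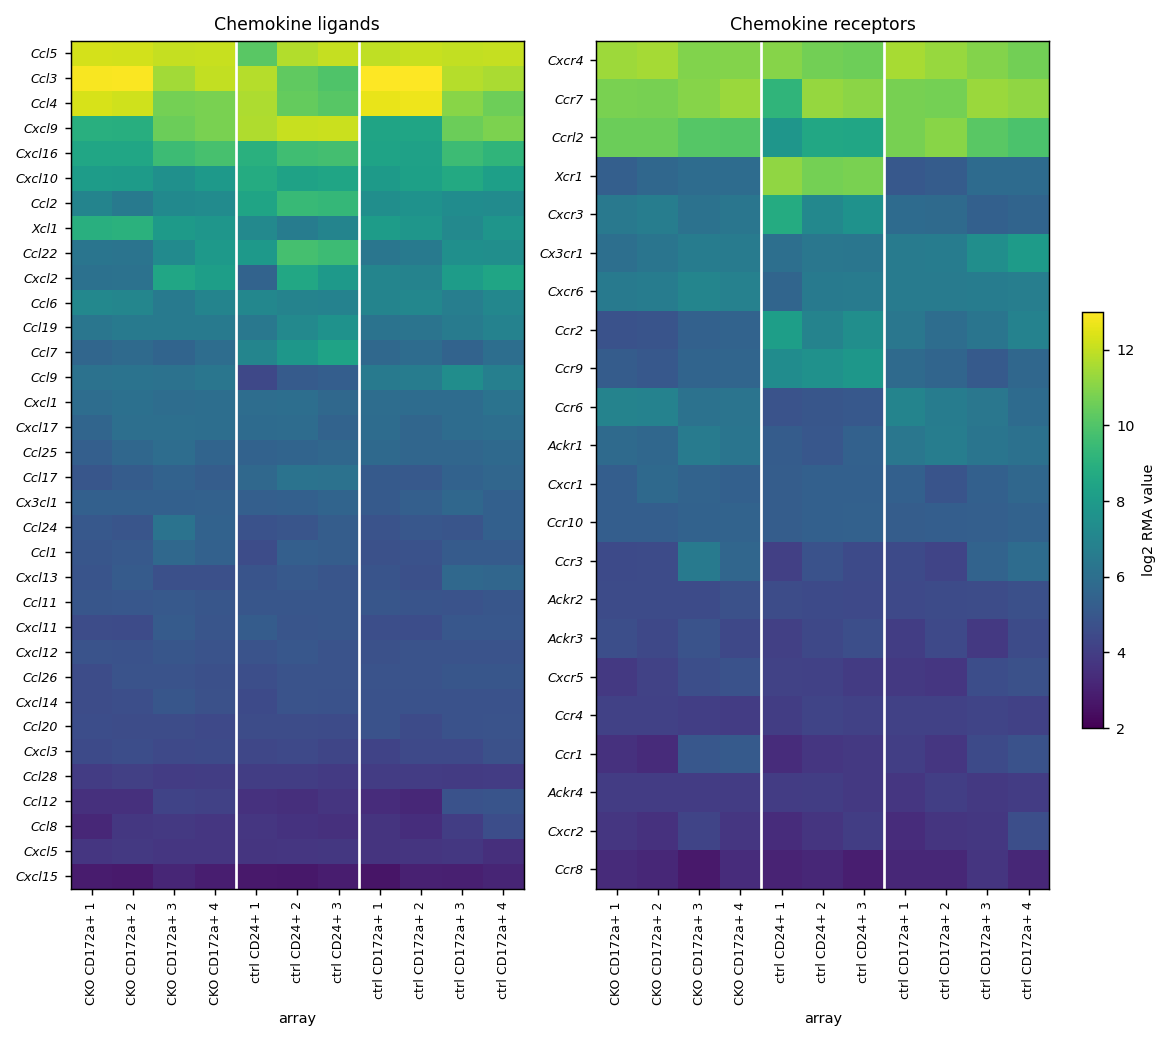
Log2 RMA value of each of the 34 ligands (left) and 22 receptors (right) on each of the 11 arrays, in columns by group (CKO CD172a+, ctrl CD24+, ctrl CD172a+) with colour from 2 to 13 and genes ordered by mean. Xcr1 is bright on the 3 ctrl CD24+ arrays alone (10.71 to 11.18), and Ccl3, Ccl4, Ccr7 and Cxcr4 are bright on all 11.

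Ctrl CD24+ and ctrl CD172a+ cDCs differed at 11 of the 56 members (19.6%), against 6.41% of all genes. Among receptors, Xcr1, Ccr9 and Cxcr3 rose and Ccrl2, Ccr6 and Ackr1 fell, that is 3 of 22 each way (3.25% of all genes rose and 3.16% fell). Among ligands, Ccl2, Ccl7, Ccl22 and Ccl17 rose and Ccl9 fell, that is 4 and 1 of 34. Over all receptors the median difference was -0.17 and over all ligands -0.07, beside -0.02 over all genes. The groups did not overlap at 15 of 56 members (26.8%), against 14.6% of all genes.

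Xcr1 and Ccr9 lie in a cluster of 6 receptors on chromosome 9, in the order Ccr9, Cxcr6, Xcr1, Ccr1, Ccr3 and Ccr2 in RefSeq's gene table, with at most 1 other protein-coding gene between neighbours. The 200 bases upstream of 3 of them are shown because these neighbours had different patterns over the groups: Ccr9 and Xcr1 were high in CD24+ cells alone, while Ccr2 was lowest in CKO CD172a+ cells. Capitals mark CACCT on either strand, the core of the E-box bound by Zeb factors. The sequences are RefSeq's, build GRCm38.p6: Ccr9 at chr9:123767011-123767210 on the plus strand, Xcr1 at chr9:123862030-123862229 on the minus strand and Ccr2 at chr9:124101983-124102182 on the plus strand.
Ccr9: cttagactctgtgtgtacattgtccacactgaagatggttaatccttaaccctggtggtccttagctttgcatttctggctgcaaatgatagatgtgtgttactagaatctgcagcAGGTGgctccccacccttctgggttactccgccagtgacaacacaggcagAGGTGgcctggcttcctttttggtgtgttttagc
Xcr1: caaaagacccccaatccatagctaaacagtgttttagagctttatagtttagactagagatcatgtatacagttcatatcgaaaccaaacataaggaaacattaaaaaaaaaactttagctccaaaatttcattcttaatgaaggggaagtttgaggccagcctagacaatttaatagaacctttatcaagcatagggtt
Ccr2: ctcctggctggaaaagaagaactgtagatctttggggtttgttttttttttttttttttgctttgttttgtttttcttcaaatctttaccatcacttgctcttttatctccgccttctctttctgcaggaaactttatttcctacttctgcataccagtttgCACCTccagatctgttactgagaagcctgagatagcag
The stretch of Ccr9 held 2 matches, that of Xcr1 0 and that of Ccr2 1. In the 250 bases before the start, CACCT was found on either strand in 12 of the 19 receptors with a listed promoter (63.2%) and 6 of the 23 ligands (26.1%), against 45.8% of 27025 genes. A match is a description of these letters and not a binding site.

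Xcr1, the receptor for Xcl1, had values of 11.18, 10.71 and 10.79 on the ctrl CD24+ arrays, against 5.03, 5.19, 5.84 and 5.83 on the ctrl CD172a+ arrays. The groups lay far apart, with a log2 difference of 5.42 (SE 0.226, adjusted p = 1.52e-07). Xcr1 is itself among the cDC1 markers of the label check. Ccr9, the receptor for Ccl25 that directs homing to the small intestine, had 7.33, 7.55 and 7.82 on ctrl CD24+ arrays, against 5.78, 5.60, 5.12 and 5.66 on ctrl CD172a+ arrays. It rose by 2.03 (SE 0.192, adjusted p = 6.67e-05) with no overlap. Ccr9 is also a marker of plasmacytoid dendritic cells. The mean of 7 such markers was 6.54 to 6.66 in ctrl CD24+ and 6.49 to 6.93 in ctrl CD172a+ arrays, with 6 and 7 above the median. That mean includes Ccr9 itself. Spib averaged 5.53 in ctrl CD24+ and 7.57 in ctrl CD172a+ arrays, Tcf4 7.11 and 7.74, Siglech 5.25 and 5.67, and Cox6a2 6.37 and 6.79. Bst2 (8.66 and 8.17) and Ly6d (5.67 and 5.54) were higher in ctrl CD24+ arrays. The part of plasmacytoid dendritic cells in the difference of Ccr9 was not tested.

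Cxcr3, the receptor for Cxcl9 and Cxcl10, had 8.78, 7.13 and 7.60 on ctrl CD24+ arrays, against 5.86, 5.80, 5.37 and 5.55 on ctrl CD172a+ arrays. Every CD24+ value exceeded every CD172a+ value, although the CD24+ values spread widely, and the difference was 2.19 (SE 0.314, adjusted p = 0.00125). Ccr2, the receptor for Ccl2 and Ccl7 and best known on monocytes, had 8.17, 6.91 and 7.42 on ctrl CD24+ arrays, against 6.38, 5.93, 6.27 and 6.89 on ctrl CD172a+ arrays. The closest values of the groups were nearly equal, and the difference of 1.14 (SE 0.310) missed the threshold in limma (adjusted p = 0.0569). With a block for array set the difference was 1.11 and passed (adjusted p = 0.0225). It also passed without ctrl CD24+ replicate 2 or ctrl CD172a+ replicate 4 (lowest adjusted p = 0.0303).

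Ccrl2, an atypical receptor that binds chemerin, fell most among the receptors. It had 7.79, 8.60 and 8.52 on ctrl CD24+ arrays, against 10.76, 11.04, 10.18 and 9.87 on ctrl CD172a+ arrays. The groups did not overlap, and the difference of -2.16 (SE 0.287, adjusted p = 0.00074) amounted to 4.46-fold. Ccr6, the receptor for Ccl20, had 4.80, 4.94 and 5.01 on ctrl CD24+ arrays, against 6.97, 6.61, 6.34 and 5.84 on ctrl CD172a+ arrays. All CD24+ values lay below the median of all genes and all CD172a+ values above it (difference -1.52, SE 0.262, adjusted p = 0.00437). Ackr1, which binds many inflammatory chemokines without signalling, had 5.19, 4.99 and 5.40 on ctrl CD24+ arrays, against 6.34, 6.67, 6.27 and 6.10 on ctrl CD172a+ arrays. It fell by 1.15 (SE 0.217, adjusted p = 0.00799).

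Other receptors with well-known roles in dendritic cells did not pass. Ccr7 had 9.19, 11.26 and 11.08 on ctrl CD24+ arrays, against 10.75, 10.69, 11.33 and 11.19 on ctrl CD172a+ arrays. Its lowest value was ctrl CD24+ replicate 1, and the other CD24+ arrays lay within the range of the CD172a+ arrays (difference -0.48, 95% interval -1.40 to 0.45). Cxcr4, the receptor for Cxcl12, differed by -0.37 (95% interval -0.87 to 0.13). Cx3cr1, the receptor for Cx3cl1, had 6.02, 6.38 and 6.34 on ctrl CD24+ arrays, against 6.60, 6.62, 7.44 and 8.03 on ctrl CD172a+ arrays. These groups did not overlap, yet the difference of -0.92 missed the threshold in limma (adjusted p = 0.139), and with a block for array set it was -1.03 and passed (adjusted p = 0.00157).

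Among ligands, the upstream sequences of Ccl22, Cxcl9, Cxcl10 and Ccl9 are shown because Ccl22 and Ccl9 moved in opposite directions between the subsets, and Cxcl9 and Cxcl10 are neighbours on chromosome 5 that both feed Cxcr3. Capitals mark GGG and CC with any 5 bases between them, on either strand and with overlapping matches merged, a loose form of the site bound by NF-kB, the factor that drives many inflammatory chemokines. The sequences are RefSeq's, build GRCm38.p6: Ccl22 at chr8:94745484-94745683 on the plus strand, Cxcl9 at chr5:92328080-92328279, Cxcl10 at chr5:92348890-92349089 and Ccl9 at chr11:83578637-83578836, these 3 on the minus strand.
Ccl22: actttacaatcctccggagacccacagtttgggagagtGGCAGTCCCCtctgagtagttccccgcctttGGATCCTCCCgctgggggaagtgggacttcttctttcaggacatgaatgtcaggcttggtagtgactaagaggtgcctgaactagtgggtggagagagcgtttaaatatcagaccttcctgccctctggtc
Cxcl9: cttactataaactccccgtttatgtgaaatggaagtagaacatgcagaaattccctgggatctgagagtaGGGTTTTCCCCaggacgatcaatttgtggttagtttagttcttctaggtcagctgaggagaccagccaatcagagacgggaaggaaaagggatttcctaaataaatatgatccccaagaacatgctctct
Cxcl10: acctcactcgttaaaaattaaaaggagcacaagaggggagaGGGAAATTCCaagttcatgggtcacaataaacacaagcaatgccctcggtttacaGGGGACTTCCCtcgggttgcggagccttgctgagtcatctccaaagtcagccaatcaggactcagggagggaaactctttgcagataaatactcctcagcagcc
Ccl9: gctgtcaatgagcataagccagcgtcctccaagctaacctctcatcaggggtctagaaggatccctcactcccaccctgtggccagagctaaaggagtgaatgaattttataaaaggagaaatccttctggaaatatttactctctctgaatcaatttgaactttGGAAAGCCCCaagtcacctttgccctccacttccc
The stretches held 2 matches in Ccl22, 3 in Cxcl9, 4 in Cxcl10 and 1 in Ccl9, overlaps counted. In the 250 bases before the start this motif was found in 13 of 23 ligands (56.5%) and 11 of 19 receptors (57.9%), against 45.4% of 27025 genes. GAAA repeated after any 2 bases, the core of the interferon response element, was found in 3 of 23 ligands and 0 of 19 receptors, against 3.04% of genes. TGANTCA, bound by AP-1, was in 2 ligands and 2 receptors (6.87% of genes), and GAGGAA, bound by PU.1, in 6 ligands and 5 receptors (23.1% of genes), all on either strand.

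Ccl2 and Ccl7, neighbouring genes on chromosome 11 whose products attract monocytes through Ccr2, rose together in CD24+ cells. Ccl2 had 8.42, 9.40 and 9.34 on ctrl CD24+ arrays, against 7.42, 7.63, 7.35 and 7.30 on ctrl CD172a+ arrays. Ccl7 had 6.999, 7.83 and 8.39 on ctrl CD24+ arrays, against 5.74, 5.90, 5.50 and 5.97 on ctrl CD172a+ arrays. Neither gene's groups overlapped, and in both the lowest CD24+ value was replicate 1. The differences were 1.63 (SE 0.245, adjusted p = 0.00175) for Ccl2, a 3.10-fold change, and 1.96 (SE 0.262, adjusted p = 0.000754) for Ccl7. The next genes of that cluster, Ccl11, Ccl12, Ccl8 and Ccl1, had means below the median and did not pass in this comparison.

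Ccl22 and Ccl17, the ligands of Ccr4 made by mature dendritic cells, lie on chromosome 8 on either side of Cx3cl1. Ccl22 had 7.97, 9.77 and 9.53 on ctrl CD24+ arrays, against 6.32, 6.51, 7.48 and 7.46 on ctrl CD172a+ arrays. Ccl17 had 5.71, 6.19 and 6.13 on ctrl CD24+ arrays, against 5.10, 5.08, 5.44 and 5.63 on ctrl CD172a+ arrays. The groups did not overlap for either gene, though each gene's first-set arrays were lower within their group. Ccl22 rose by 2.15 (SE 0.528, adjusted p = 0.0342) and Ccl17 by 0.70 (SE 0.177, adjusted p = 0.0398). Both calls were lost without ctrl CD24+ replicate 2 or 3 or ctrl CD172a+ replicate 1 or 2, and that of Ccl17 also without ctrl CD172a+ replicate 3 or CKO CD172a+ replicate 2 or 4, with adjusted p up to 0.151 for Ccl22 and 0.166 for Ccl17. Without any 1 of those ctrl CD24+ replicates or ctrl CD172a+ replicates 1 and 2, 3 ligands passed in place of 5. Cx3cl1, between them on the chromosome, differed by 0.04 (95% interval -0.23 to 0.32).

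Ccl9, a ligand of Ccr1, was the only ligand that fell. It had 4.38, 5.15 and 5.30 on ctrl CD24+ arrays, against 6.54, 6.62, 7.39 and 6.76 on ctrl CD172a+ arrays. The groups were separated by more than their own spread, with a difference of -1.89 (SE 0.236, adjusted p = 0.000486). Its neighbours are Ccl5, Ccl6, Ccl3 and Ccl4. Ccl6 did not pass (95% interval of its difference -0.32 to 0.31). Ccl3, Ccl4 and Ccl5, the inflammatory chemokines that act through Ccr1 and related receptors, are taken up with the array sets below.

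**Figure D2:**
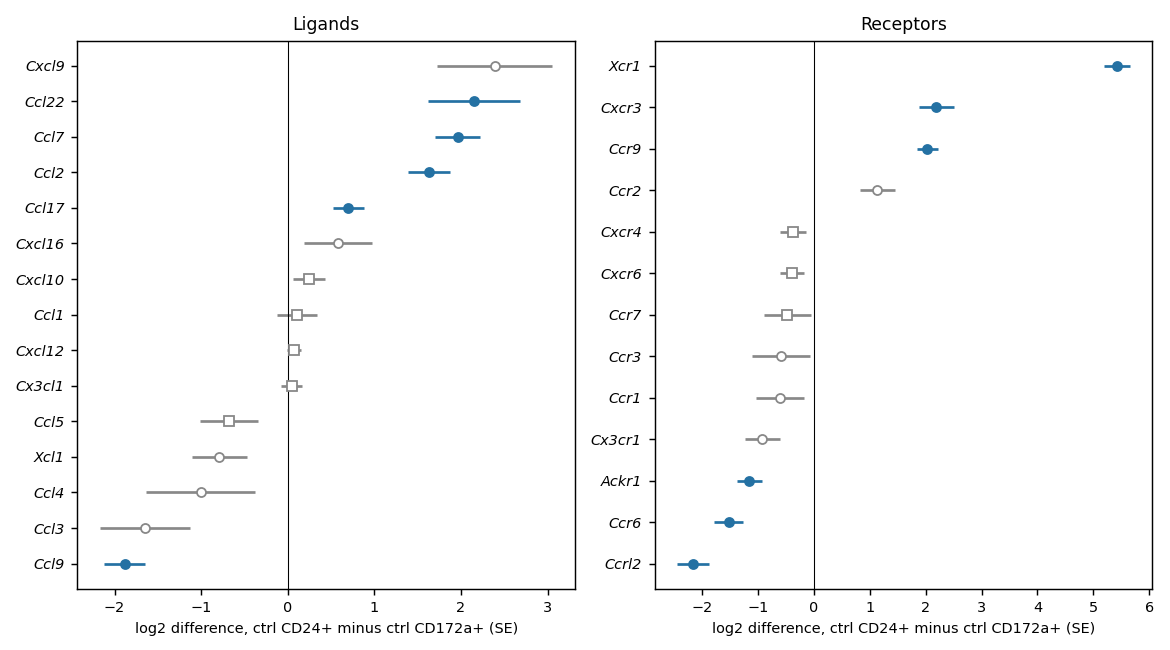
Log2 difference, ctrl CD24+ minus ctrl CD172a+, with its SE, for the 28 named ligands (left) and receptors (right). Filled symbols passed in limma without a block, open circles passed only once array set was a block, and open squares passed in neither; Xcr1 stands at 5.42, and Ccrl2 and Ccl9 mark the lower end at -2.16 and -1.89.

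CKO CD172a+ and ctrl CD172a+ cDCs, the comparison that asks what changed in cells labelled as lacking Zeb2, differed at 0 of the 56 members in limma (background 0.0502% of all genes). At an unadjusted p under 0.05 there were 6 members (10.7%), against 3.88% of all genes, and the groups did not overlap at 3 members (5.36%), against 2.1%. The median difference was 0.03 over receptors and -0.02 over ligands, beside 0.01 over all genes. With the replicate number as a block, 2 members passed, Ccr2 and Cxcr3, where 0.13% of all genes did. That fit held the arrays of these 2 groups alone, without ctrl CD24+, so it differs from the main fit by more than the block. No label pairs the arrays by number. With the array set as a block, fitted on all 11 arrays, 0 members passed (background 0.145%).

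Ccr2 had the smallest p among the members. It had 4.76, 4.87, 5.42 and 5.50 on CKO CD172a+ arrays, against 6.38, 5.93, 6.27 and 6.89 on ctrl CD172a+ arrays. The groups did not overlap, all CKO arrays lay below the median of all genes and all ctrl arrays above it. The difference was -1.23 (SE 0.287, unadjusted p = 0.00137, adjusted p = 0.637), with -1.34 in the first and -1.11 in the second array set, and the adjusted p was 0.0273 with the replicate block and 0.118 with the array set block. Cx3cr1, the receptor that marks patrolling monocytes and some cDC2, had 6.03, 6.27, 6.64 and 6.57 on CKO CD172a+ arrays, against 6.60, 6.62, 7.44 and 8.03 on ctrl CD172a+ arrays. The groups overlapped slightly, and the difference of -0.79 (SE 0.292, adjusted p = 0.998) was -0.46 in the first and -1.13 in the second set.

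These 2 receptors belong to the monocyte markers. Over the 7 monocyte markers measured, the mean per array was 7.14 to 7.37 in CKO CD172a+ and 7.96 to 8.19 in ctrl CD172a+ arrays, and 5 of them exceeded the median of all genes in CKO CD172a+ and 6 in ctrl CD172a+ cells. Lyz2, the lysozyme of myeloid cells, fell, averaging 9.17 ± 0.34 in CKO CD172a+ and 10.82 ± 0.23 in ctrl CD172a+ arrays (SD, n = 4 each). Its adjusted p was 0.00894 in limma. Csf1r averaged 7.47 in CKO CD172a+ and 8.42 in ctrl CD172a+ arrays, and Adgre4 6.30 and 7.49. Nr4a1 (11.41 and 11.46) and Fcgr1 (4.85 and 4.78) differed little. In ctrl CD24+ arrays Lyz2 averaged 10.96 and Ccr2 7.50, while Csf1r averaged 5.70 and Adgre4 4.21. The part of monocytes in the values of Ccr2 and Cx3cr1 was not tested.

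Cxcr3 went the other way. It had 6.46, 6.67, 6.16 and 6.32 on CKO CD172a+ arrays, against 5.86, 5.80, 5.37 and 5.55 on ctrl CD172a+ arrays, without overlap. The difference was 0.76 (SE 0.291, unadjusted p = 0.0245, adjusted p = 0.998), it was 0.74 in the first and 0.78 in the second set, and the adjusted p was 0.0327 with the replicate block and 0.181 with the array set block. The CKO values remained below the 7.13 to 8.78 of ctrl CD24+ arrays. Markers of other cells are given here because other cells also carry Cxcr3, and those of NK cells follow with Xcl1. The mean of 6 B cell markers was 5.86 to 6.33 in CKO CD172a+ and 5.21 to 5.54 in ctrl CD172a+ arrays. Of these, 4 and 3 lay above the median, and 1 rose. By group mean, Fcer2a was 6.48 in CKO CD172a+ and 4.43 in ctrl CD172a+ arrays, Ms4a1 8.22 and 6.20, and Blk 6.27 and 5.81. Cd79a (3.38 and 3.31), Cd79b (7.10 and 7.23) and Pax5 (5.16 and 5.19) differed little. The mean of 6 T cell markers was 4.89 to 5.04 in CKO CD172a+ and 4.93 to 5.15 in ctrl CD172a+ arrays, with 1 above the median in each. The mean of 7 plasmacytoid dendritic cell markers was 6.93 to 7.26 in CKO CD172a+ and 6.49 to 6.93 in ctrl CD172a+ arrays. Of these, 6 and 7 lay above the median, and 1 rose. Cox6a2 averaged 8.88 in CKO CD172a+ and 6.79 in ctrl CD172a+ arrays. Siglech (6.10 and 5.67), Ly6d (5.91 and 5.54) and Bst2 (8.36 and 8.17) were higher by less. Tcf4 (7.48 and 7.74), Ccr9 (5.34 and 5.54) and Spib (7.55 and 7.57) were not higher. The part of these cell types was not tested.

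Xcl1, the ligand of Xcr1, had 8.93, 9.02, 7.98 and 7.80 on CKO CD172a+ arrays, against 8.08, 7.80, 7.20 and 7.75 on ctrl CD172a+ arrays. The groups overlapped, though within each array set every CKO value was higher, by 1.04 on average in the first and 0.42 in the second (difference 0.73, SE 0.292, adjusted p = 0.998). The mean of 9 NK cell markers, a list that holds Xcl1 and Ccl5 themselves, was 6.28 to 6.54 in CKO CD172a+ and 6.10 to 6.23 in ctrl CD172a+ arrays, with 4 above the median in each, and the part of NK cells was not tested.

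Ccl9 and Cxcl10 were lower in the CKO means without passing. Ccl9 had 6.13, 6.20, 6.15 and 6.33 on CKO CD172a+ arrays, against 6.54, 6.62, 7.39 and 6.76 on ctrl CD172a+ arrays. These values did not overlap and the CKO arrays were close to each other (difference -0.63, SE 0.219, adjusted p = 0.998). Cxcl10, an interferon-induced ligand of Cxcr3, had 8.07, 8.02, 7.51 and 7.92 on CKO CD172a+ arrays, against 7.98, 8.27, 8.66 and 8.20 on ctrl CD172a+ arrays. Its difference of -0.40 (SE 0.169, adjusted p = 0.998) was -0.08 in the first and -0.71 in the second set.

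**Figure D3:**
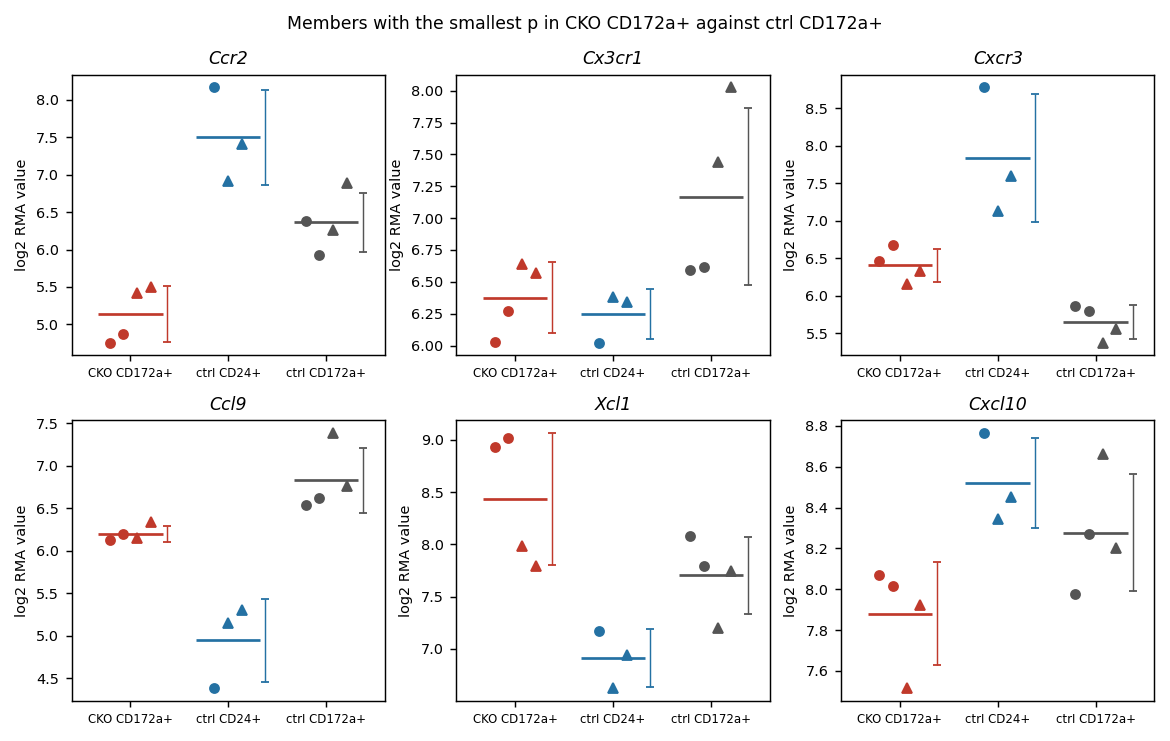
Log2 RMA value of the 6 members with the smallest unadjusted p in CKO CD172a+ against ctrl CD172a+, by array; circles are the first and triangles the second array set, lines are group means and bars the SD. For Ccr2, Cxcr3 and Ccl9 the CKO CD172a+ and ctrl CD172a+ points do not overlap, with means of 5.14 and 6.36, 6.40 and 5.65, and 6.20 and 6.83.

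Of the 6 receptors that passed between the ctrl subsets, Cxcr3 had a 95% interval in the CKO comparison that lay above 0 (0.12 to 1.40), and the other 5 had intervals that held 0. Xcr1 had 5.34, 5.66, 5.89 and 5.87 on CKO CD172a+ arrays, within 1 log2 unit of the ctrl CD172a+ values given above (difference 0.22, 95% interval -0.24 to 0.68). Ccr9 had 5.21, 5.03, 5.54 and 5.60 (difference -0.20, interval -0.59 to 0.19), and Ccr6 had 6.91, 6.88, 6.16 and 6.24 (difference 0.10, interval -0.43 to 0.64). Ccrl2 had 10.51, 10.52, 10.09 and 10.05 (difference -0.17, interval -0.76 to 0.41), and Ackr1 had 5.82, 5.67, 6.59 and 6.29 (difference -0.25, interval -0.70 to 0.19). The intervals of these 5 receptors do not reach the differences between ctrl CD24+ and ctrl CD172a+ cells. Ccr7 had 10.78, 10.72, 11.01 and 11.36 on CKO CD172a+ arrays and differed by -0.02 from ctrl CD172a+, with a wider interval of -0.88 to 0.83. The remaining 28 members, outside the naming rule, differed by between -0.38 and 0.37 in 19 ligands and between -0.15 and 0.36 in 9 receptors.

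CKO CD172a+ and ctrl CD24+ cDCs differed at 13 of 56 members (23.2%), against 7.17% of all genes. It shares its arrays with both comparisons above, so its calls are not independent of theirs. Lower in CKO CD172a+ were Xcr1, Ccr9, Ccr2 and Cxcr3 of 22 receptors and Ccl2, Ccl7, Ccl17 and Ccl22 of 34 ligands (3.92% of all genes fell). Higher were the receptors Ccrl2, Ccr6 and Ackr1 and the ligands Ccl9 and Xcl1 (3.25% of all genes rose). Of these, 11 genes also passed between ctrl CD24+ and ctrl CD172a+ cells, a count that the common arrays help to set. The CKO CD172a+ values of the ligands among them were 6.96, 6.52, 7.21 and 7.31 for Ccl2, 5.63, 5.82, 5.57 and 5.93 for Ccl7, 4.93, 5.22, 5.45 and 5.26 for Ccl17, and 6.30, 6.22, 7.26 and 7.95 for Ccl22. All of these lay below every ctrl CD24+ value of the same gene, and the other values per array are given above.

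Ccr2 and Xcl1 were the genes that passed here and not between the ctrl subsets. For Ccr2 the 4 CKO CD172a+ values of 4.76 to 5.50 stood against 6.91 to 8.17 in ctrl CD24+ arrays (difference -2.36, SE 0.310, adjusted p = 0.000655). The difference was -3.35 in the first set, where ctrl CD24+ is the single replicate 1, and -1.70 in the second. For Xcl1 the CKO CD172a+ values of 7.80 to 9.02 stood against 6.62 to 7.17 in ctrl CD24+ arrays (difference 1.52, SE 0.315, adjusted p = 0.0132), a 2.86-fold change. Ctrl CD24+ cells, the group with the high Xcr1 signal, had less Xcl1 signal than CKO CD172a+ cells. The Xcl1 call was lost without ctrl CD24+ replicate 2 (adjusted p = 0.0663), which left 3 ligands in place of 6. Calls were also lost for Ackr1 without CKO CD172a+ replicate 3 or 4 or any ctrl CD24+ array (up to 0.123), for Ccl17 without ctrl CD24+ replicate 2 or 3 (up to 0.0892), and for Ccl22 without CKO CD172a+ replicate 1, 2 or 3 or ctrl CD24+ replicate 2 or 3 (up to 0.134).

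Several ligands differed between the array sets within every group. Ccl3 had 12.89, 12.93, 11.48 and 11.99 on CKO CD172a+ arrays, 11.78, 10.31 and 9.98 on ctrl CD24+ arrays and 12.96, 12.98, 11.79 and 11.62 on ctrl CD172a+ arrays. Ccl4 had 12.35, 12.22, 10.72 and 10.78 on CKO CD172a+, 11.66, 10.42 and 10.14 on ctrl CD24+ and 12.64, 12.73, 11.04 and 10.59 on ctrl CD172a+ arrays. In every group the second-set arrays were lower. Ccl3 was lower by 1.17 in CKO CD172a+, 1.63 in ctrl CD24+ and 1.26 in ctrl CD172a+ arrays, and Ccl4 by 1.53 in CKO CD172a+, 1.38 in ctrl CD24+ and 1.87 in ctrl CD172a+ arrays. With the set as a block, both passed between ctrl CD24+ and ctrl CD172a+ cells (Ccl3 difference -1.43 with the block, adjusted p = 1.72e-05, against -1.65 and 0.102 without; Ccl4 difference -0.74 with the block, adjusted p = 0.00252, against -1.01 and 0.54 without). Without ctrl CD24+ replicate 1, Ccl3 also passed with no block. The sets were found from these same values, so the adjusted p with the block may be too small.

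Cxcl9, Cxcl16 and Ccl22 were higher on the second set in every group. Cxcl9, the interferon-gamma-induced ligand of Cxcr3, had 8.96, 8.91, 10.54 and 10.79 on CKO CD172a+ arrays, 11.68, 12.07 and 12.11 on ctrl CD24+ arrays and 8.42, 8.48, 10.52 and 10.84 on ctrl CD172a+ arrays. The ctrl CD24+ arrays lay above all others, although the sets differed by 1.73 in CKO CD172a+ and 2.24 in ctrl CD172a+ arrays. Between ctrl CD24+ and ctrl CD172a+ the difference was 2.39 (SE 0.667, adjusted p = 0.0616), 3.24 in the first and 1.41 in the second set, and with the set as a block it was 2.12 (adjusted p = 0.000188). Without a block and without ctrl CD172a+ replicate 4 the adjusted p was 0.031. Cxcl16, the ligand of Cxcr6 and a scavenger receptor at the cell surface, passed with the block alone (difference 0.41, adjusted p = 0.0369, against 0.58 and 0.593 without).

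Ccl5, made by T cells and many myeloid cells, had 12.30, 12.25, 12.02 and 12.07 on CKO CD172a+ arrays, 10.20, 11.74 and 12.03 on ctrl CD24+ arrays and 11.96, 12.06, 11.99 and 12.01 on ctrl CD172a+ arrays. Ctrl CD24+ replicate 1 stood apart, with the other arrays between 11.74 and 12.30. Among the other named members, the same array was the lowest of the 11 for Ccr7, Ccl9, Cxcr6, Ccrl2, Ccr6, Cx3cr1, Ccr3 and Ccl1. It was the highest for Ccr2, Cxcr3, Xcr1 and Cxcl10. Ccr1 and Ccr3, receptors for several inflammatory chemokines, had means below the median in every group. On CKO CD172a+ arrays Ccr1 had 4.998 and 5.12 in the second set, against 3.58 and 3.36 in the first, and Ccr3 had 6.47 and 5.61 in the second set, against 4.48 and 4.53 in the first. Both were also higher on the second set in ctrl CD172a+ cells, as the red pulp macrophage markers were, and the part of macrophages was not tested. Cxcl2, a neutrophil attractant chosen for mention after its values were seen, was higher on the second set by 2.22 in CKO CD172a+, 2.74 in ctrl CD24+ and 1.29 in ctrl CD172a+ cells.

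**Figure D4:**
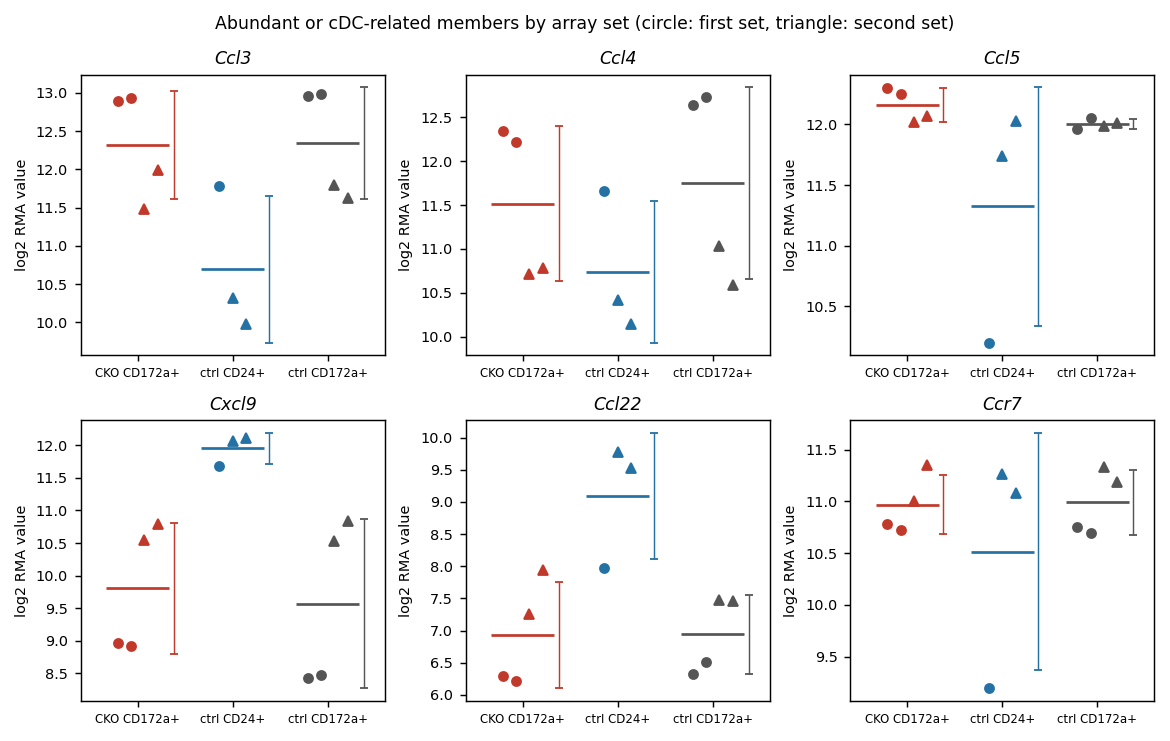
Log2 RMA value of Ccl3, Ccl4, Ccl5, Cxcl9, Ccl22 and Ccr7 by array; circles are the first and triangles the second array set, lines are group means and bars the SD. Triangles lie below circles for Ccl3 and Ccl4 and above them for Cxcl9 and Ccl22 in all 3 groups, and the low circle of ctrl CD24+ for Ccl5 (10.20) and Ccr7 (9.19) is replicate 1.

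Fitted with a block for array set, 20 of 56 members passed between ctrl CD24+ and ctrl CD172a+ cells, beside 15.4% of all genes, of which 6 ligands and 4 receptors rose and 4 ligands and 6 receptors fell. Over all genes, 8.55% rose and 6.9% fell with the block. The 9 that passed with the block alone were Ccr2, Cxcl9 and Cxcl16, which rose, and Ccl3, Ccl4, Xcl1, Cx3cr1, Ccr1 and Ccr3, which fell. Between CKO CD172a+ and ctrl CD24+ cells 22 members passed with the block, beside 18.3% of all genes (7.52% higher and 10.7% lower). Those added were Ccl1, Ccl3, Ccl4, Cxcr4, Cxcr6, Ccr1 and Ccr3, which were higher in CKO CD172a+ cells, and Cxcl9 and Cxcl10, which were lower. As the sets were found from these same values, the counts with the block may be too high.

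In the 4 gene clusters drawn below, no change was shared by all neighbours. On chromosome 9, between ctrl CD24+ and ctrl CD172a+ cells, Ccr9 and Xcr1 rose while Cxcr6 between them differed by -0.40 (95% interval -0.87 to 0.08), and Ccr1 and Ccr3 by -0.61 and -0.59. On chromosome 11, Ccl2 and Ccl7 rose. In the second cluster of that chromosome Ccl9 fell, while Ccl6 differed by -0.0047. Ccl3, Ccl4 and Ccl5 there differed by -1.65, -1.01 and -0.68 without passing in limma, and Ccl3 and Ccl4 passed as lower with the array set block. In CKO CD172a+ against ctrl CD172a+ cells the difference of Ccr2 had no counterpart in the next gene of the cluster, Ccr3, at 0.24 (interval -0.81 to 1.29).

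**Figure D5:**
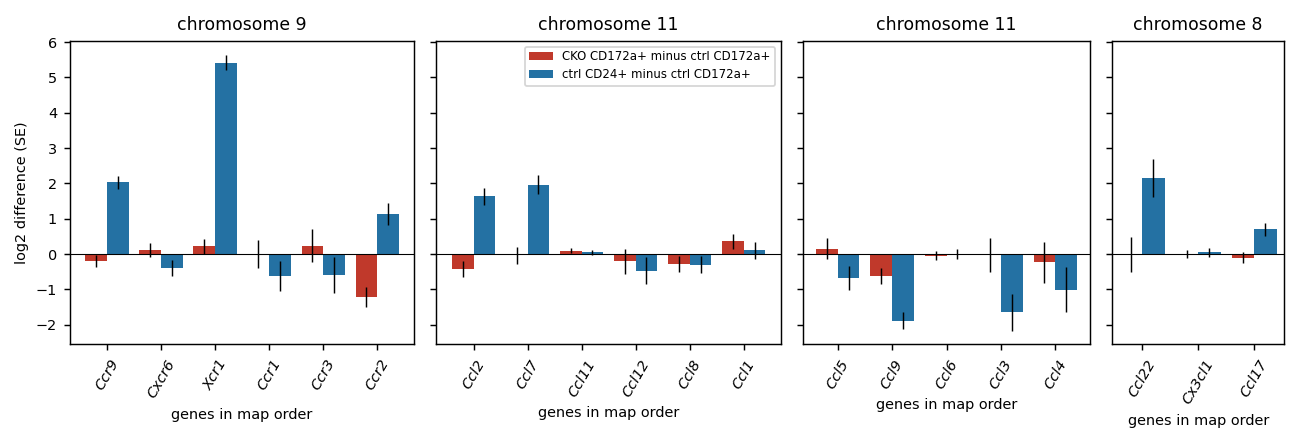
Log2 difference with its SE, for CKO CD172a+ minus ctrl CD172a+ (red) and ctrl CD24+ minus ctrl CD172a+ (blue), for the members of 4 gene clusters in map order on chromosomes 9, 11, 11 and 8. Xcr1 at 5.42 and Ccr9 at 2.03 stand out in the first panel, Ccl2 and Ccl7 in the second, Ccl9 at -1.89 in the third and Ccl22 at 2.15 in the fourth.

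Genes acting around the receptors were read from 5 lists. Between CKO CD172a+ and ctrl CD172a+ cells 0 passed in limma in any list, and 1 signalling gene had an unadjusted p under 0.05. Of 27 genes of receptor signalling, 3 fell in ctrl CD24+ against ctrl CD172a+ cells and 0 rose (median -0.13, beside -0.02 over all genes, of which 3.16% fell and 3.25% rose): Elmo1, which activates Rac, averaged 9.44 in ctrl CD24+ and 10.32 in ctrl CD172a+ arrays (adjusted p = 0.0055), Rasgrp2, an exchange factor for Rap, 5.25 and 6.19 (adjusted p = 0.000917), and Ptk2b, a kinase related to focal adhesion kinase, 7.67 and 8.13 (adjusted p = 0.0324). Of 11 measured genes of receptor desensitisation (13 listed, median -0.22), Arrb1, which encodes beta-arrestin 1, rose by 0.86 (adjusted p = 0.021) and Rgs1, which shortens G protein signals, fell by 0.44 (adjusted p = 0.0095). Of 13 measured receptors for other chemoattractants (15 listed, median -0.08), 2 fell. Gpr183, the oxysterol receptor that positions cDC2 at the bridging channels of the spleen, averaged 8.51 in ctrl CD24+ and 10.42 in ctrl CD172a+ arrays (adjusted p = 0.00273), and the leukotriene B4 receptor Ltb4r1 6.04 and 6.64 (adjusted p = 0.0311). Gpr183 averaged 10.93 in CKO CD172a+ arrays.

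Of 6 genes for chemokine trimming and shedding (median -0.17), the metalloproteases Mmp12 and Mmp9 fell in ctrl CD24+ against ctrl CD172a+ cells. Mmp12 averaged 5.20 in ctrl CD24+ and 9.55 in ctrl CD172a+ arrays, and Mmp9 4.36 in ctrl CD24+ and 5.29 in ctrl CD172a+ arrays (adjusted p = 0.017). Of 3 chemokines with other symbols, 0 passed in limma in any comparison, and 1 had an unadjusted p under 0.05 in each comparison with ctrl CD24+ cells. Between CKO CD172a+ and ctrl CD24+ cells, where 3.25% of all genes rose and 3.92% fell, 3 of 27 signalling genes rose, 1 of 11 desensitisation genes rose and 1 fell, and 1 of 13 chemoattractant receptors and 1 of 6 trimming genes rose.

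Genes whose values ran most like those of Xcr1 over the 11 arrays were Rab7b (Pearson r = 0.9956), Plpp1 (0.9934) and Pdia5 (0.9932), and for Ccr9 they were Arsb (0.9922), Mlec (0.9899) and Pgk1 (0.9885). These coefficients are descriptions: the 11 arrays fall into CD24+ and CD172a+ groups, so a gene that separates those groups by a wide margin scores high.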

How the data were processed

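Log2 expression values per probe set were analysed as deposited. RMA is the tool named in the submitters' processing notes, while its version, any probe filter and the build are not given in the sources used here. Per the labels' protocols, spleens were digested enzymatically, and biotin-labelled targets were made with an Ovation PicoSL kit. Of 30177 probe sets, 21789 carried 1 gene symbol, 1621 several and 6767 none. Each of 19938 genes was read from its highest-mean probe set with 1 symbol. Of the members, 2 had more than 1 such probe set, and all 56 were found in RefSeq by symbol. Array medians lay between 5.45 and 5.52, and precision is limited by the number of arrays. The largest share of genes with identical values in a pair of arrays was 5.52%, and every array was counted as a sample of its own.

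Comparisons used limma 3.58.1 (R 4.3.3), in 1 model over 11 arrays with group as the factor, 8 residual degrees of freedom before moderation, two-sided tests and Benjamini-Hochberg adjustment over all genes. The script was tested on simulated data. Tables and figures used Python 3.11.15, pandas 2.3.3, numpy 2.4.6 and matplotlib 3.10.9.

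Named with values were members past the threshold in any comparison without a block or with the array set as a block, the 5 ligands and 5 receptors with the highest means, and a set of dendritic cell chemokine genes. The members, lists and rules were chosen with earlier results of these data known. Some listed genes had no probe set with 1 symbol and were not analysed here. Promoters came from RefSeq (GRCm38.p6, first listed per gene), found for 42 members.

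Same-numbered CKO CD172a+ and ctrl CD172a+ arrays deviated together from their group means over genes. Their r ran from 0.442 to 0.68 in 4 pairs, above the 0.1 required. Other-numbered arrays of the same array set gave 0.496 to 0.699, so these r cannot tell a pairing by number from the array set. The labels state no such pairing, and the replicate block was kept only as an alternative. For ctrl CD24+ the numbers do not pair. Alternatives were the array set as a block, fits within each set, the replicate block, each array left out, the mean of a gene's probe sets, a filter on dim genes, median centring, and a trended robust variance.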

Additional observations from a re-analysis of the deposited data

Results flagged for a closer look

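In 2 of 56 groups of 4 arrays tested among the named members, 1 array lay far from the other 3, where chance alone marks about 1 group in 20. Cx3cl1 on CKO CD172a+ replicate 4 had 5.40 (5.39519), while the other 3 arrays had the identical value 5.35899. Cxcl12 on ctrl CD172a+ replicate 1 had 4.74 (4.74412), against 4.81528 to 4.81837 on the other 3. Both gaps are below 0.1 log2 units, and the group means of both genes lay below the median of all genes.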

How the results depend on the processing

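The filter on dim genes kept any gene whose mean exceeded the median of all genes in at least 1 group. Ackr1, Ccl9 and Ccr6 did so in the CD172a+ groups alone, and Ccl17 in ctrl CD24+ alone. Their brighter group kept them in, so the filter is no independent test of their calls. Nor is the array set block, as the sets were found from these same values. All 24 member differences that passed kept their direction and call with dim genes filtered out, with the array set as a block and within the second array set. All 24 also kept both with the mean of a gene's probe sets, with arrays centred on their median and with the trended robust variance. Within the first array set 4 lost the call, Ccl2 and Ccl17 in ctrl CD24+ against ctrl CD172a+ cells and Ackr1 and Ccl17 in CKO CD172a+ against ctrl CD24+ cells, a fit with a single CD24+ array, assumed to vary like the other groups. The members that passed in ctrl CD24+ against ctrl CD172a+ cells numbered 11, and 20 with the array set block, 19 within the first and 18 within the second set. In CKO CD172a+ against ctrl CD24+ cells they numbered 13, and 22 with the block and 20 within the second set. Genes passing over all genes in CKO CD172a+ against ctrl CD172a+ cells numbered 10, and 29 with the set block and 0 within the first set. With the set block they numbered 3080 in ctrl CD24+ against ctrl CD172a+ cells (1278 without) and 3641 in CKO CD172a+ against ctrl CD24+ cells (1429 without). With the replicate block, fitted on the arrays of the compared groups alone, 2 members and 26 genes passed in CKO CD172a+ against ctrl CD172a+ cells. The numbers do not pair ctrl CD24+ arrays: same-numbered arrays from different sets gave r of -0.445 and -0.361. There the replicate block left 762 genes in ctrl CD24+ against ctrl CD172a+ cells, Ccl17 at an adjusted p of 0.0547, and Cxcr3 at 0.0893 in CKO CD172a+ against ctrl CD24+ cells. Apart from these, and from calls it added, the block changed no member's call. With each array left out, members passing ranged over 0 to 0, 9 to 13 and 9 to 14, and genes over 7 to 11, 874 to 1220 and 985 to 1533, in CKO CD172a+ against ctrl CD172a+, ctrl CD24+ against ctrl CD172a+ and CKO CD172a+ against ctrl CD24+. Every difference that changed sign was one that had not passed, and the cause was not tested. In CKO CD172a+ against ctrl CD172a+ cells these were, within the second set, Ackr1 0.25, Ccl22 0.14, Ccl3 0.029, Ccl7 0.010, Ccr9 0.18, Ccrl2 0.042, Cx3cl1 -0.14 and Cxcl9 -0.015, within the first set Ccr1 -0.42, Ccr7 0.031 and Cxcr6 -0.033, and with arrays centred Ccr1 -0.0042 and Cx3cl1 -0.0083. In ctrl CD24+ against ctrl CD172a+ cells they were Ccl1 -0.18 within the first set and Cx3cl1 -0.071 and Cxcl10 -0.036 within the second, and in CKO CD172a+ against ctrl CD24+ cells Cx3cl1 0.024 within the first. With 1 array left out, the differences that crossed 0 ranged in CKO CD172a+ against ctrl CD172a+ cells from -0.18 to 0.0059 (Ccl17), -0.35 to 0.23 (Ccl22), -0.26 to 0.26 (Ccl3), -0.62 to 0.10 (Ccl4), -0.13 to 0.025 (Ccl7), -0.28 to 0.31 (Ccr1), -0.16 to 0.53 (Ccr3), -0.10 to 0.28 (Ccr6), -0.15 to 0.09 (Ccr7), -0.37 to 0.019 (Ccrl2), -0.090 to 0.10 (Cx3cl1), -0.0032 to 0.061 (Cxcl12), -0.0048 to 0.46 (Cxcl16), -0.15 to 0.66 (Cxcl9) and -0.079 to 0.22 (Cxcr4). In ctrl CD24+ against ctrl CD172a+ cells they ranged from -0.041 to 0.34 (Ccl1), -0.85 to 0.18 (Ccr7) and -0.047 to 0.14 (Cx3cl1), and in CKO CD172a+ against ctrl CD24+ cells from -0.21 to 0.83 (Ccr7), -0.082 to 0.021 (Cx3cl1) and -0.076 to 0.018 (Cxcl12). Signals near or below the median of all genes limit what RMA values can show, and 4, 3 and 4 arrays limit the precision.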
